A study of Sus scrofa with 6 samples.

Results

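Interferon-stimulated genes are the genes that cells switch on when an interferon binds its receptor, and here they were read one by one in the RNA of pig peripheral blood mononuclear cells (PBMCs), the lymphocytes and monocytes separated from blood. A list of 45 symbols was searched in the deposited table, and a gene was kept when its symbol was in the table and its FPKM (fragments counted per gene, scaled for transcript length and sequencing depth) was 1 or more in at least 3 of the 6 libraries. This left 35 rows with 34 symbols out of 11564 rows, since TAP1 has 2 rows. The other 11 symbols, ISG15 among them, had no row under that name, and every row that was found passed the filter, with an FPKM of at least 1 in all 6 libraries.

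The 6 libraries, each titled as a replicate of its own, are of Yorkshire pigs at 6 months of age, 3 labelled WT and 3 labelled Leptin-overexpressing. The transgenic line carries a pig leptin coding sequence and was made by nuclear transfer from transfected fetal fibroblasts. The study describes this sequence as placed behind a leptin promoter, though its cloning protocol does not mention that promoter. The WT label stands for pigs without the transgene. Because the transgene is the pig sequence, its RNA and that of the animal's own leptin gene are read as 1 gene, LEP. LEP was at 50.0 FPKM in WT replicate 1, listed at 0 in WT replicate 2 and at 0.118 in WT replicate 3, and it was listed at 0 in Leptin-overexpressing replicate 1 and at 18.3 and 39.3 in replicates 2 and 3. Both libraries numbered 1 therefore go against their labels. Groups below are those of the labels, "the libraries labelled" is meant wherever a group is named, and the main results are also given without these 2 libraries. No read counts are in the table, so depth is unknown and the number of libraries sets the precision. Summed FPKM ran from 444888 to 449653 in the WT libraries and from 467276 to 503140 in the Leptin-overexpressing ones. Markers of T cells (CD3E, 213 to 372 FPKM), B cells (CD79A, 133 to 248), monocytes (CD14, 99.9 to 291) and NK cells (NKG7, 66.9 to 123) were present in every library, as PBMCs should have them.

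As background, type I interferons signal through receptor-bound kinases to a transcription factor complex that holds IRF9 and binds the promoters of most of these genes. Type II interferon (IFNG) has a receptor of its own and is the stronger inducer of the guanylate-binding proteins. The products sense viral RNA, block translation, degrade RNA, trap virus particles or tag proteins with ISG15, and a raised level of these transcripts in blood cells is a known feature of many patients with systemic lupus erythematosus, the disease that the leptin pigs were studied as a model of. The comparison asks whether the libraries of the 2 labels differ in this response.

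No interferon-stimulated gene passed the test between the labels. With limma on log2(FPKM + 1) and Benjamini-Hochberg adjustment over the 10735 genes tested, 0 of the 35 rows were higher (0.00932% of all genes tested were) and 0 were lower (0% of all genes tested), and adjusted p lay between 0.993 and 0.998. At an unadjusted p under 0.05, 0 rows were higher (1.98% of all genes) and 1 was lower in the Leptin-overexpressing libraries (1.19% of all genes), or 1 row of 35 against 3.18% of all genes in either direction. That lower count was 10 without WT replicate 3 (2.22% of all genes in that fit) and 0 without WT replicate 1, WT replicate 2 or Leptin-overexpressing replicate 1 (131, 114 and 123 of all 10735 genes), and none of these fits had a row past the adjusted threshold. The log2 difference (Leptin-overexpressing minus WT) was below 0 for 29 rows and above 0 for 6, against 36.9% and 63.1% of all genes tested, with a median of -0.17 over the rows and 0.059 over all genes. That direction rested on single libraries. Without WT replicate 2, 11 rows were below 0 and 24 above, with a median of 0.11, and without Leptin-overexpressing replicate 1 the counts were 17 and 18, with a median of 0.0055. The median was -0.52 without WT replicate 3 and -0.46 without Leptin-overexpressing replicate 2. Without both libraries numbered 1, the counts were also 17 and 18, and the median was 0.0053. The libraries of the 2 labels overlapped for 34 of the 35 rows, 0 rows were higher without overlap (5% of all genes) and 1 was lower without overlap (2.63% of all genes). For all 35 rows, the range of the 3 WT libraries on the log2 scale was wider than the difference between the labels, as it was for 90% of all genes.

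**Figure D1:**
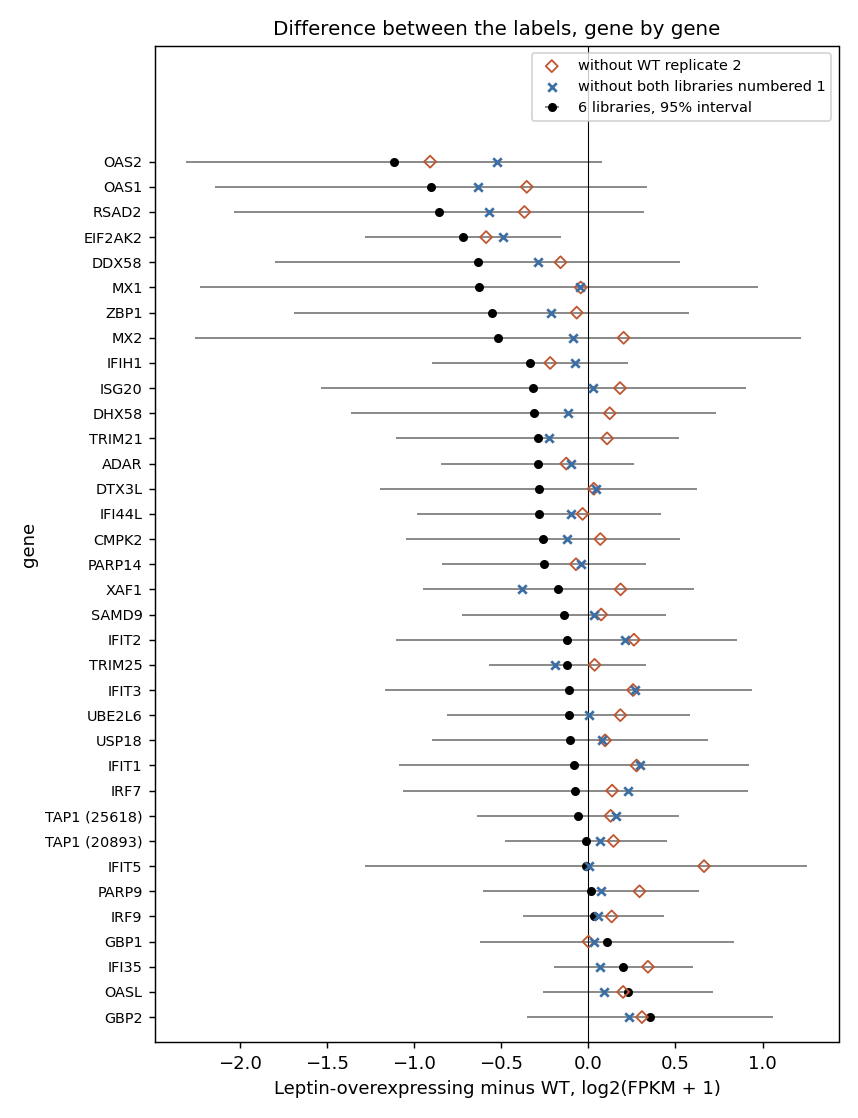
Difference between the labels for each of the 35 rows (horizontal axis, Leptin-overexpressing minus WT on the log2(FPKM + 1) scale). Black points with bars are the limma estimates from 6 libraries with their 95% intervals, open diamonds the estimates without WT replicate 2, and crosses those without both libraries numbered 1. The intervals of 34 of 35 rows include 0, and most diamonds lie to the right of the black points.

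The rows differed from library to library in a shared order that did not follow the labels. In each library, every row was expressed as its log2(FPKM + 1) minus its own mean over the 6 libraries. The median over the rows was 0.09 in WT replicate 1, 0.65 in WT replicate 2 and -0.44 in WT replicate 3. In the Leptin-overexpressing libraries it was -0.50, 0.28 and -0.19 for replicates 1, 2 and 3. The replicate 2 libraries of both labels were thus high, and WT replicate 3 and Leptin-overexpressing replicate 1 were low. The same medians over all genes tested were -0.13, -0.03 and 0.08 in WT replicates 1 to 3. In the Leptin-overexpressing libraries they were 0.11, -0.05 and 0.04. They were smaller, other than in WT replicate 1, and in each library opposite in sign to the median of the rows. Of the 35 rows, 32 were above their own mean in WT replicate 2 and 27 in Leptin-overexpressing replicate 2, but only 3 in WT replicate 3 and 5 in Leptin-overexpressing replicate 1. Summed over the rows, FPKM was 5713, 8176 and 3230 in WT replicates 1, 2 and 3, which was 1.28%, 1.82% and 0.719% of each library's total. In the Leptin-overexpressing libraries the sums were 3332, 6220 and 4503, or 0.666%, 1.24% and 0.964%.

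**Figure D2:**
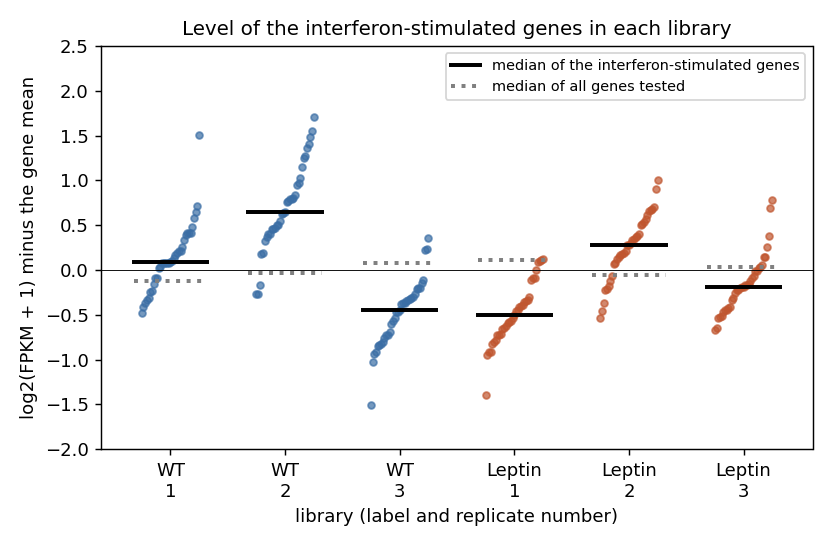
Each point is 1 of the 35 rows in 1 library, as log2(FPKM + 1) minus the mean of that gene over the 6 libraries (vertical axis). Black bars are the medians of the rows, dotted grey bars those of all 10735 genes tested. The black bar is highest in WT replicate 2 (0.65) and lowest in Leptin-overexpressing replicate 1 (-0.50), and the grey bars stay near 0.

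Row by row, 26 of the 35 had their highest value in WT replicate 2, where 12.9% of all genes tested had theirs. None was highest in WT replicate 3 (21.9% of all genes) or in Leptin-overexpressing replicate 1 (28% of all genes). In 11 rows the excess of WT replicate 2 over the median of the other 5 libraries was above 1 log2 unit (0.82% of all genes). Both replicate 2 libraries were the highest pair in 20 rows (5.57% of all genes), and WT replicate 3 with Leptin-overexpressing replicate 1 were the lowest pair in 24 (4.47% of all genes). The lowest value lay in WT replicate 3 for 16 rows and in Leptin-overexpressing replicate 1 for 13. The rows also varied more between animals than genes in general, with a median range over the 6 libraries of 1.33 log2 units against 0.58 for all genes. Their highest and lowest libraries differed by more than 1 log2 unit in 25 rows, against 14.7% of all genes tested. Since these are the same 6 libraries, and the genes share their regulators, the rows are not separate observations of the pattern.

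**Figure D3:**
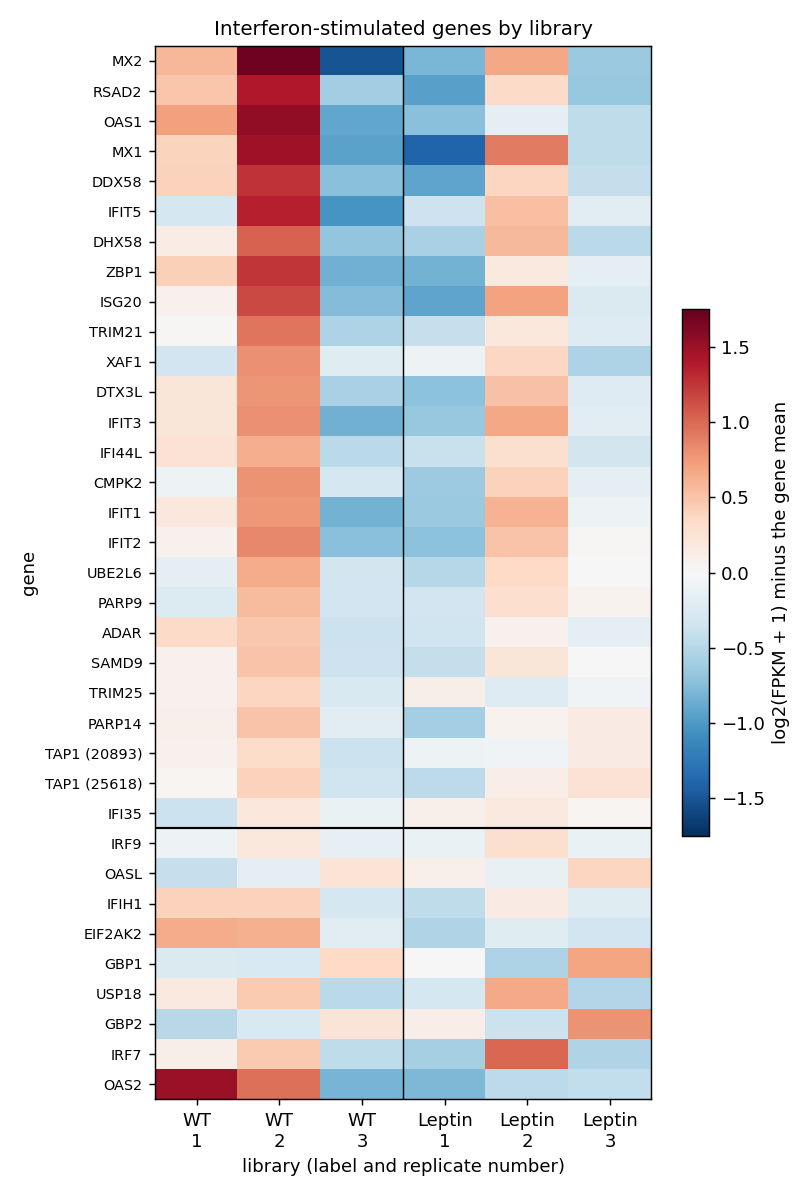
Colour gives log2(FPKM + 1) minus the gene's mean over the 6 libraries, with rows for genes and columns for libraries. The 26 rows above the black horizontal line have their highest value in WT replicate 2, and the 9 below it in another library. Numbers after TAP1 are the last digits of its 2 identifiers.

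Levels spanned a wide range, with a median of the mean FPKM of 50.8 over the 35 rows against 9.05 over all genes tested, and 14 rows had a mean of at least 100. By mean FPKM over the 6 libraries the order began with IFIT1 (914), IFIT2 (588), the TAP1 row ENSSSCG00000020893 (529), IFIT3 (456) and SAMD9 (283). OAS1 (282), OAS2 (272) and MX1 (247) followed. The last 5 were CMPK2 (19.2), USP18 (16.7), EIF2AK2 (16.3), TRIM25 (13.8) and OASL (2.19), and OASL was the single row with a mean under 10. With standard deviations within a label as large as 475 FPKM for IFIT1, neighbours in this order such as SAMD9 and OAS1 were not apart beyond their spread. Several rows lie side by side in the genome. In the coordinates of the deposited table, whose build is not named, IFIT2, IFIT3, IFIT1 and IFIT5 stand in a row on chromosome 14, and OAS2 and OAS1 stand together elsewhere on it. MX1 with MX2 and PARP14 with DTX3L and PARP9 lie on chromosome 13, RSAD2 with CMPK2 on chromosome 3 and GBP2 with GBP1 on chromosome 4. No 2 of these loci overlap. In the table's own annotation, 7 of the 18 rows with a biological process carry defence response to virus, against 26 of 2950 annotated rows tested, and 4 of the 14 with a pathway (DDX58, DHX58, IFIH1 and IRF7) carry RIG-I-like receptor signalling, against 36 of 1935. The list was chosen as interferon-stimulated genes, so these shares follow from that choice and not from the FPKM values.

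Among the RNA sensors, all 4 rows had a log2 difference below 0, and none passed the test. DDX58 (RIG-I, ENSSSCG00000030408, chromosome 10 from 38145073 to 38192181), which recognises viral RNA with a free triphosphate end, was at 26.9, 49.6 and 11.7 FPKM in WT replicates 1 to 3 and at 10.1, 26.3 and 14.8 in the Leptin-overexpressing ones. WT replicate 2 was highest, and the other 5 values of both labels interleaved. The log2 difference was -0.63 (standard error 0.50, adjusted p = 0.993, limma) and ranged from -1.16 without WT replicate 3 to -0.16 without WT replicate 2. Without both libraries numbered 1 it was -0.29. ZBP1 (ENSSSCG00000007508, chromosome 17 from 65136535 to 65146713), a sensor of Z-form nucleic acid, had 84.5, 152 and 34.95 FPKM in WT and 35.2, 70.9 and 56.0 in Leptin-overexpressing libraries. Its difference of -0.55 (standard error 0.49) was -0.07 without WT replicate 2, -1.11 without WT replicate 3 and -0.21 without both libraries numbered 1. IFIH1 (MDA5, ENSSSCG00000015897, chromosome 15 from 76423088 to 76477401), the sensor of long double-stranded RNA, was at 45.7, 45.4 and 27.4 FPKM in WT and 24.8, 38.0 and 29.5 in Leptin-overexpressing libraries. It is 1 of the rows with WT replicate 1 on top, though only just, and its difference was -0.34 (standard error 0.24). It was -0.57 without WT replicate 3, -0.20 without Leptin-overexpressing replicate 1 and -0.08 without both libraries numbered 1. DHX58, the regulator of both, was at 71.8 FPKM in WT replicate 2 and between 21.1 and 52.1 in the other libraries. Its difference of -0.31 (standard error 0.45) turned to 0.12 without WT replicate 2, so not all 4 rows stayed below 0 in that fit.

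The IFIT proteins bind viral RNA ends and stop its translation, and IFIT1, IFIT2 and IFIT3 were among the 5 rows with the highest mean FPKM. IFIT1 (ENSSSCG00000010453, chromosome 14 from 110223575 to 110235651) was at 961, 1426 and 475 FPKM in WT and at 537, 1289 and 794 in Leptin-overexpressing libraries. Both replicate 2 libraries were thus about alike, and the labels interleaved. Its log2 difference was -0.08 (standard error 0.44, 95% interval -1.08 to 0.92), and 0.28 without WT replicate 2. IFIT2 (ENSSSCG00000010451, chromosome 14 from 110179711 to 110190465) was at 574, 969.9 and 328 FPKM in WT and 331, 772 and 553 in Leptin-overexpressing libraries, and IFIT3 (ENSSSCG00000010452, chromosome 14 from 110209343 to 110210870) at 484, 724 and 232 against 263, 668 and 364. Their differences of -0.12 (standard error 0.43) and -0.11 (standard error 0.46) also changed sign without WT replicate 2, to 0.26 for each. IFIT5 was the lowest of the 4, at 46.1 FPKM in WT replicate 2 and 7.97 to 25.5 elsewhere, and its difference moved from -0.01 to 0.66 without that library.

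The OAS enzymes make the short oligoadenylates that activate RNase L, and they had the largest differences between the labels. OAS2 (ENSSSCG00000009881, chromosome 14 from 41196285 to 41208970) was at 627, 432 and 125 FPKM in WT and at 127, 159.7 and 164 in Leptin-overexpressing libraries. WT replicates 1 and 2 stood above all 3 Leptin-overexpressing libraries, but WT replicate 3 lay under them. Means were 395 ± 253 (SD, n = 3) and 150.1 ± 20.1 FPKM (SD, n = 3), with a log2 difference of -1.11 (standard error 0.52, 95% interval -2.30 to 0.08, adjusted p = 0.993, limma). OAS1 (ENSSSCG00000009882, chromosome 14 from 41260565 to 41268627) was at 381, 678 and 122 FPKM in WT and at 139, 205 and 169 in Leptin-overexpressing libraries. The same 2 WT libraries were high, in the other order, and the difference was -0.90 (standard error 0.54). Without WT replicate 2 it was -0.35 for OAS1 and -0.91 for OAS2, and without both libraries numbered 1 it was -0.63 and -0.52. For OAS1 it was -1.58 without WT replicate 3. For OAS2 it was -0.64 without WT replicate 1 and -1.80 without WT replicate 3, the latter with an adjusted p of 0.116 in limma. In Leptin-overexpressing replicate 2, where IFIT1 was about as high as in WT replicate 2, OAS1 and OAS2 were at 205 and 159.7 FPKM, against 678 and 432 in WT replicate 2. The related OASL (ENSSSCG00000009921, chromosome 14 from 43414433 to 43431814), which has lost the enzyme activity, ran at 1.37, 1.80 and 2.70 FPKM in WT and 2.35, 1.88 and 3.07 in Leptin-overexpressing libraries. Its highest libraries were Leptin-overexpressing replicate 3 and WT replicate 3, and its difference of 0.23 (standard error 0.21) was among the 6 above 0, and ranged from 0.08 without WT replicate 1 to 0.40 without WT replicate 3.

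EIF2AK2 (PKR, ENSSSCG00000008496, chromosome 3 from 109622368 to 109667785), the kinase that halts translation when it binds double-stranded RNA, was the 1 row with an unadjusted p under 0.05 and the 1 without overlap. It was at 24.7, 24.3 and 13.3 FPKM in WT and at 10.3, 13.1 and 11.99 in Leptin-overexpressing libraries. WT replicates 1 and 2 were alike and WT replicate 3 was far lower, and the lowest WT library stood just above the highest Leptin-overexpressing one. Means were 20.8 ± 6.48 (SD, n = 3) and 11.8 ± 1.42 FPKM (SD, n = 3), a log2 difference of -0.72 (standard error 0.24, 95% interval -1.28 to -0.16, adjusted p = 0.993, limma). The exact permutation test, two-sided, gave 0.1, the smallest p that 3 libraries against 3 allow. The difference was -0.59 without WT replicate 2 and -0.49 without both libraries numbered 1, and neither fit had an unadjusted p under 0.05 (0.064 and 0.166 in limma). ADAR, which edits adenosine in double-stranded RNA, was at 54.4, 60.1 and 33.0 FPKM in WT and 33.6, 45.4 and 38.2 in Leptin-overexpressing libraries. ISG20, an exonuclease, was at 201 FPKM in WT replicate 2 and 147 in Leptin-overexpressing replicate 2, and between 47.1 and 94.9 in the other libraries.

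**Figure D4:**
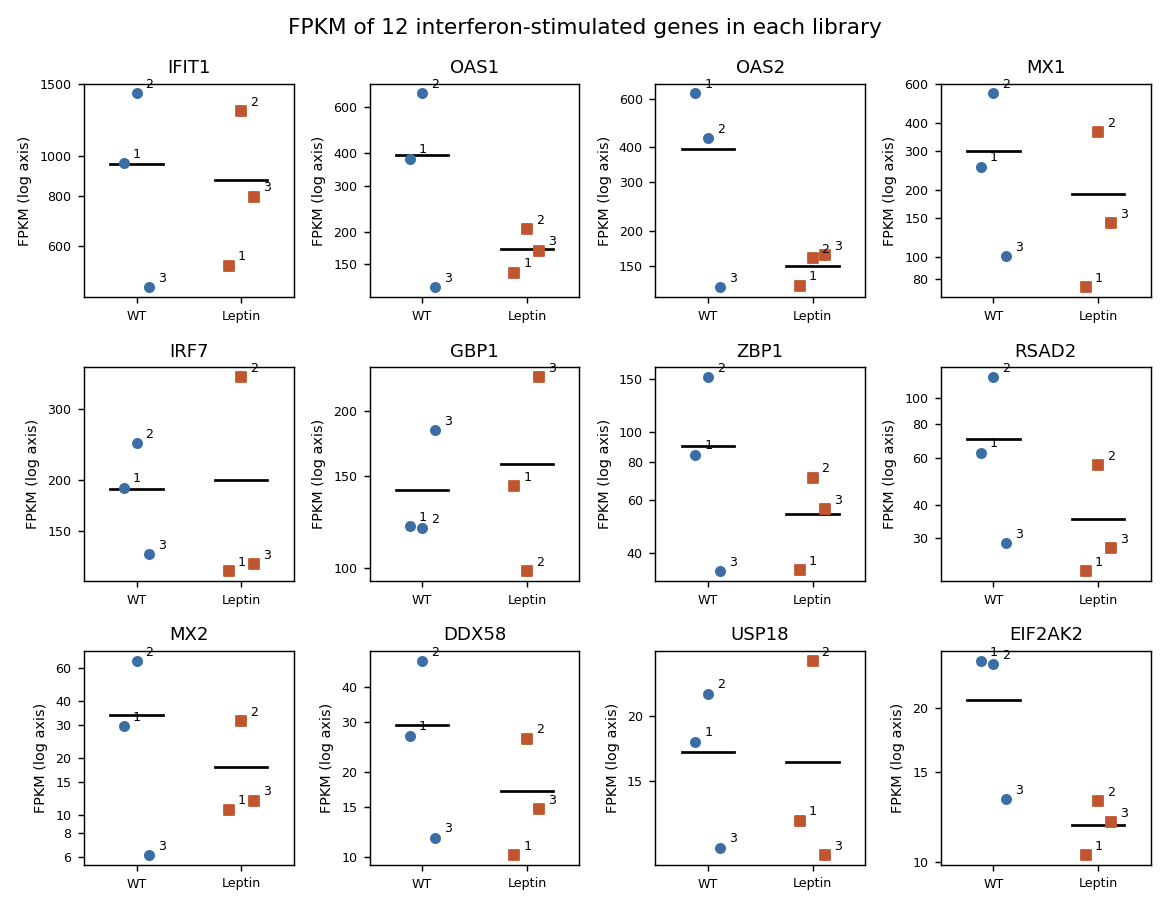
FPKM on a log axis for 12 genes, with circles for WT and squares for Leptin-overexpressing libraries, the replicate number beside each point and bars at the group means. In most panels point 2 is the highest of its label, whereas OAS2 has point 1 and GBP1 has point 3 on top, and the labels overlap in every panel but that of EIF2AK2.

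The MX proteins are dynamin-like GTPases that assemble around viral nucleocapsids, and they varied most between animals. MX1 (ENSSSCG00000012077, chromosome 13 from 214988890 to 215011264) was at 256, 544 and 101.3 FPKM in WT and at 73.3, 365 and 142 in Leptin-overexpressing libraries, a 7.42-fold range. MX2 (ENSSSCG00000012076, chromosome 13 from 215028063 to 215059085) was at 29.5, 65.4 and 6.14 FPKM in WT and at 10.7, 31.4 and 11.9 in Leptin-overexpressing libraries. Its highest and its lowest library, 10.6-fold apart, carried the same WT label. The log2 differences were -0.63 (standard error 0.69) for MX1 and -0.52 (standard error 0.75) for MX2, and without WT replicate 2 they were -0.04 and 0.20. Without WT replicate 3 they were -1.25 and -1.40, and without Leptin-overexpressing replicate 2 they were -1.24 and -0.99. Without both libraries numbered 1 they were -0.045 and -0.088. RSAD2 (viperin, ENSSSCG00000008648, chromosome 3 from 137667911 to 137683557), which makes a chain-terminating nucleotide, was at 62.6, 119 and 28.8 FPKM in WT and at 22.6, 56.1 and 27.6 in Leptin-overexpressing libraries. Its difference was -0.86 (standard error 0.51), -0.37 without WT replicate 2, -1.37 without WT replicate 3 and -0.57 without both libraries numbered 1. CMPK2, the nucleotide kinase beside it on the chromosome, was at 16.9, 31.99 and 14.5 against 11.3, 24.2 and 16.1 FPKM, with a difference of -0.26. That difference was 0.07 without WT replicate 2, -0.52 without Leptin-overexpressing replicate 2 and -0.12 without both libraries numbered 1. SAMD9 (ENSSSCG00000027372, chromosome 9 from 79679835 to 79684587), an inhibitor of poxvirus growth, had a narrower range, from 207 FPKM in Leptin-overexpressing replicate 1 to 391 in WT replicate 2.

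The guanylate-binding proteins GBP1 and GBP2 did not follow the rest. GBP1 (ENSSSCG00000006924, chromosome 4 from 139650957 to 139667272) was at 120.3, 119 and 183 FPKM in WT and at 144, 98.6 and 232 in Leptin-overexpressing libraries. GBP2 (ENSSSCG00000006923, chromosome 4 from 139612346 to 139633862) was at 34.4, 40.0 and 56.5 in WT and 52.7, 37.3 and 84.0 in Leptin-overexpressing libraries. For both, Leptin-overexpressing replicate 3 was highest and WT replicate 3 next, and the replicate 2 libraries, where most rows peaked, were the 2 lowest for GBP1 and among the 3 lowest for GBP2. The log2 differences of 0.11 (standard error 0.32) and 0.35 (standard error 0.31) did not pass the test. With one library left out they ranged from -0.21 to 0.40 for GBP1 and from 0.05 (without Leptin-overexpressing replicate 3) to 0.63 (without Leptin-overexpressing replicate 2) for GBP2. Of the genes outside the set, singled out after their values were seen, GBP4 (29.2, 23.8 and 44.4 FPKM in WT, and 33.0, 17.7 and 49.7 in Leptin-overexpressing libraries) and GBP5 (9.15, 7.57 and 13.2, and 10.5, 5.82 and 12.2) also had both replicate 3 libraries highest and both replicate 2 libraries lowest. GBP6, on the same list (3.54, 5.88 and 6.87 in WT, and 4.80, 4.09 and 6.67 in Leptin-overexpressing libraries), also had both replicate 3 libraries highest, but WT replicate 1 was its lowest. IFNG, the 1 interferon gene found in the table, was at 3.89, 2.13 and 5.13 FPKM in WT and 4.08, 1.44 and 4.24 in Leptin-overexpressing libraries, likewise lowest in the replicate 2 libraries. The 11 rows of the NK list summed to 666, 280.1 and 671 FPKM in WT and to 489, 409 and 636 in Leptin-overexpressing libraries, with KLRD1 listed at 0 in 4 libraries and GNLY alone at 403, 105 and 283 in WT and 194, 248 and 350.2 in Leptin-overexpressing libraries. The 15 T cell markers summed to 1568, 1227 and 1602 against 1806, 1095 and 1850. Both sums were lowest in the replicate 2 libraries. The median deviation of the tested NK rows from their means was -0.12, -0.58 and 0.48 log2 units in WT and 0.16, -0.45 and 0.30 in Leptin-overexpressing libraries. The part of these markers in the GBP and IFNG values was not tested. In bulk RNA, fewer cells of a type and less RNA per cell cannot be told apart.

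**Figure D5:**
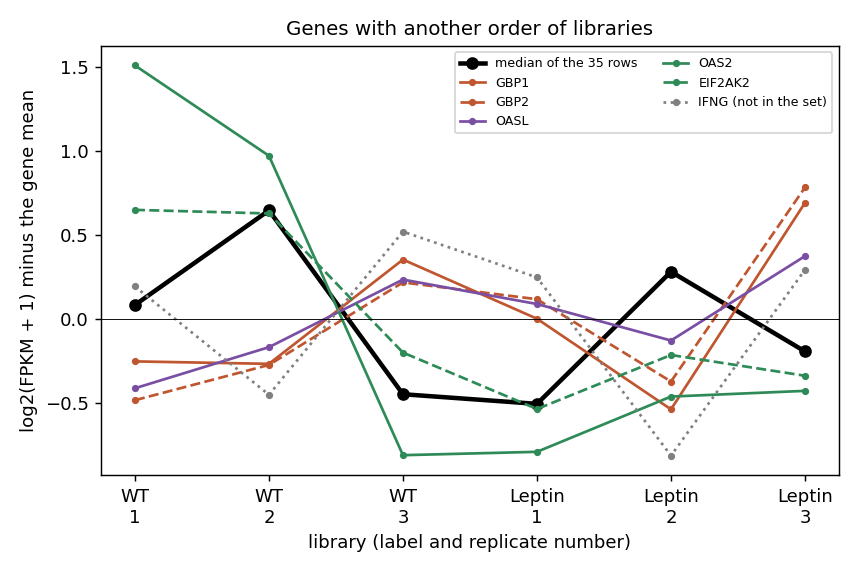
Each line gives log2(FPKM + 1) minus the gene's mean over the 6 libraries, for the median of the 35 rows (black) and for genes with another order of libraries. Lines join libraries only to guide the eye. The black line peaks in both replicate 2 libraries, GBP1, GBP2 and OASL peak in Leptin-overexpressing replicate 3, and OAS2 and EIF2AK2 are high in WT replicates 1 and 2 only.

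In all, 9 rows had their highest value outside WT replicate 2. GBP1, GBP2 and OASL were highest in Leptin-overexpressing replicate 3, and OAS2, EIF2AK2 and IFIH1 in WT replicate 1. IRF7, USP18 and IRF9 were highest in Leptin-overexpressing replicate 2. IRF7 (ENSSSCG00000012853, chromosome 2 from 299443 to 302179), the factor that amplifies interferon alpha production, was at 192, 247 and 131 FPKM in WT and at 119, 359 and 124 in Leptin-overexpressing libraries. The 359 FPKM of Leptin-overexpressing replicate 2 was the highest value, and the other 2 libraries of its label were the lowest of the 6. USP18 (ENSSSCG00000000774, chromosome 5 from 72536454 to 72596714), which removes ISG15 from proteins and dampens receptor signalling, was at 17.9, 22.1 and 11.2 FPKM in WT and 12.6, 25.5 and 10.8 in Leptin-overexpressing libraries. The log2 differences were -0.07 (standard error 0.43) and -0.11 (standard error 0.34). With one library left out they ranged from -0.59 to 0.20 for IRF7 and from -0.46 to 0.12 for USP18. Without both libraries numbered 1 they were 0.23 and 0.079. IRF9, the DNA-binding subunit of the type I interferon transcription factor complex, was nearly level, from 164 to 220.0 FPKM, with a difference of 0.03 (standard error 0.18). That difference ranged from -0.10 without Leptin-overexpressing replicate 2 to 0.13 without WT replicate 2.

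Of the ISG15 and ubiquitin genes, all but USP18 had their highest value in WT replicate 2. UBE2L6, the conjugating enzyme for ISG15, was at 140.0, 245 and 125 FPKM in WT and at 110.1, 199 and 155 in Leptin-overexpressing libraries. PARP9 and DTX3L, which form a complex, and PARP14 had their highest values in WT replicate 2, at 51.1, 34.96 and 35.8 FPKM. The ubiquitin ligase TRIM21, which is also the autoantigen Ro52 of lupus, was at 69.1 FPKM in WT replicate 2 and 24.2 to 40.5 in the others. TRIM25 (ENSSSCG00000017614, chromosome 12 from 34080928 to 34087929), the ligase that acts on RIG-I, hardly followed, at 14.5, 18.0 and 11.1 FPKM in WT and 14.8, 11.6 and 13.0 in Leptin-overexpressing libraries. Its value in Leptin-overexpressing replicate 2 was the second lowest. XAF1 (49.1 FPKM in WT replicate 2 and 18.9 to 36.2 elsewhere) and IFI44L (240.2 and 111 to 187) had WT replicate 2 highest and Leptin-overexpressing replicate 2 second, and XAF1 was lowest in Leptin-overexpressing replicate 3. IFI35 was the flattest in this direction, with WT replicate 2 only 0.14 log2 units above the median of the others.

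TAP1, a subunit of the peptide transporter that loads MHC class I, has 2 rows on chromosome 7, ENSSSCG00000020893 from 29429374 to 29438742 and ENSSSCG00000025618 from 29274669 to 29283296. How reads were divided between them is uncertain. The first was at 553, 653 and 401 FPKM in WT and at 490.0, 499 and 577 in Leptin-overexpressing libraries, and the second at 61.1, 79.1 and 47.0 against 43.3, 65.1 and 71.6. Their sums were 614, 732 and 448 in WT and 533, 564 and 649 in Leptin-overexpressing libraries, again highest in WT replicate 2, with Leptin-overexpressing replicate 3 second. The same caution on shared reads applies to IFIT, OAS, MX and GBP genes, which have close paralogs.

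Of the 11 symbols that the table lacks, 2 could be read through their identifiers in a reference table of gene names, although they were not counted among the 35 rows. IFI44 (ENSSSCG00000003763, chromosome 6 from 124790062 to 124806819) was at 69.4, 100.9 and 33.4 FPKM in WT and 30.3, 75.7 and 33.5 in Leptin-overexpressing libraries. HERC5 (ENSSSCG00000030548), the ligase for ISG15, was at 103, 149 and 52.2 against 61.5, 116.8 and 81.7. Both had WT replicate 2 highest and Leptin-overexpressing replicate 2 second, and their log2 differences were -0.53 (standard error 0.45) and -0.15 (standard error 0.38), neither past the test in limma. Without WT replicate 2 they were -0.18 and 0.19. The remaining 9 symbols were not analysed here.

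The rest of the pathway was read from 4 gene lists, ligands, receptors with their signal transduction, nucleic acid sensing, and other interferon-stimulated genes, with 82 distinct rows tested. None passed the adjusted test, 0 rows had an unadjusted p under 0.05 (3.18% of all genes tested), and 43 had a log2 difference above 0 and 39 below (63.1% and 36.9% of all genes). The unadjusted counts reached 4 higher without WT replicate 2, 3 higher and 5 lower without WT replicate 3, 2 higher without Leptin-overexpressing replicate 1 and 1 lower without WT replicate 1. Of all 10735 genes, 159, 609, 238, 136 and 131 were called in those directions in the same fits. WT replicate 2 was the highest library for 37 of the 82, as for 12.9% of all genes. It was highest for 29 of the 54 other interferon-stimulated genes, for 6 of 10 receptor and signalling genes and for 5 of 20 sensing genes. IFITM1, a membrane protein that blocks virus entry, was singled out after its values were seen, at 1439, 2331 and 1114 FPKM in WT and 1111, 2251 and 1381 in Leptin-overexpressing libraries. CXCL10, a chemokine, likewise singled out, was at 42.3 FPKM in WT replicate 2 and 9.65 to 15.9 in the other 5 libraries, so unlike IFITM1 it was not high in Leptin-overexpressing replicate 2. SIGLEC1, a monocyte receptor singled out in the same way, was at 8.06 FPKM in WT replicate 2 and between 0.815 and 2.30 in the others.

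By smallest unadjusted p, the other interferon-stimulated genes began with WARS (0.0593, log2 difference 0.38), PARP10 (0.0762, 0.33), IRF1 (0.0999, 0.31) and DDX60 (0.115, -0.32), all from limma and none past the threshold. Without WT replicate 2 these differences were 0.50, 0.23, 0.33 and -0.18. The transcription factor IRF1, induced by both interferon types, was at 189, 215 and 225 FPKM in WT and 217, 271 and 299 in Leptin-overexpressing libraries. Among the sensing genes RNASEH2C (0.39), RNASEH2A (0.48), TLR8 (0.24) and TLR7 (0.25) had the smallest p, and their log2 differences, given in brackets, were all above 0. In the fit without WT replicate 2 they were 0.28, 0.48, 0.27 and 0.46. RNASEH2A, a subunit of the enzyme that clears RNA from DNA, was at 8.24, 13.3 and 21.4 FPKM in WT and 19.1, 18.3 and 19.9 in Leptin-overexpressing libraries, so WT replicate 3 was the highest of all. Among the receptor and signalling genes, JAK1 (-0.21), JAK2 (-0.14), SOCS1 (0.15) and PTPN6 (0.11) were first by p, none of them past the test. Their differences in the fit without WT replicate 2 were -0.20, -0.04, 0.27 and 0.10. STAT2 ran from 89.9 to 141 FPKM, and was singled out after its values were seen, with its highest value in WT replicate 2.

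Markers of other blood cells differed between the libraries as well. The 12 rows of the neutrophil and granulocyte list summed to 4703, 1656 and 1036 FPKM in WT replicates 1 to 3 and to 994, 2294 and 1348 in the Leptin-overexpressing ones, with none listed at 0. The 3 libraries with the highest interferon-stimulated medians were also the 3 with the highest granulocyte sums, but WT replicate 2, the first by the median, had the lowest sum of these 3. S100A8, S100A9 and S100A12 weighed most in WT replicate 1, at 699, 1031 and 1702 FPKM. The median deviation of the tested granulocyte rows was 0.67, -0.17 and -0.41 log2 units in WT. In the Leptin-overexpressing libraries it was -0.48, 0.59 and -0.28. Not every row followed, as MMP9 was lowest in WT replicate 2 (38.5 FPKM). The 10 monocyte rows summed to 969.7, 544 and 454 FPKM in WT and to 606, 981 and 706 in Leptin-overexpressing libraries, highest in Leptin-overexpressing replicate 2 and WT replicate 1. The 6 rows of plasmacytoid dendritic cells, the main makers of type I interferon, summed to between 42.7 and 86.5 FPKM in WT and between 37.0 and 68.5 in Leptin-overexpressing libraries. GZMB, which is on the NK list too, was the row of these that varied most, at 49.4, 8.77 and 48.6 FPKM in WT and 37.8, 4.73 and 14.3 in Leptin-overexpressing libraries. The 8 B cell rows summed to between 435 and 811 FPKM in WT and 613 and 772 in Leptin-overexpressing libraries, the 8 plasma cell rows to between 448 and 749 and between 393 and 627. The 13 platelet rows summed to between 272 and 616 FPKM and between 222 and 596, with GP1BB listed at 0 in 4 libraries, and the 3 erythroid rows to between 25.1 and 219 and between 21.8 and 103. The part of these cells in the interferon-stimulated values was not tested.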

How the data were processed

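PBMC RNA of 6 pigs, 3 per label, was sequenced, and the replicate numbers come from the sample titles. The authors deposited 1 FPKM value per gene and library. The study's methods name Bowtie, an Ensembl transcriptome and RSEM, whereas the submitters' processing notes name FastQC, STAR 2.5, Cuffnorm and DESeq 1.22.1, so which program divided reads among paralogs is uncertain. Columns with the authors' own fold changes and p-values were not used.

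FPKM values were compared with limma 3.58.1 in R 4.3.3 (lmFit, eBayes without trend) on log2(FPKM + 1), by label, over the 10735 genes that reached 1 FPKM in 3 or more libraries. The test was two-sided, and p-values were adjusted by Benjamini-Hochberg. A pseudocount of 1 understates changes of low genes. Libraries were described by each gene's deviation from its mean in Python 3.11.15. The table of gene names matched 1504 of the 4000 rows without a symbol and was used for the pathway and marker lists.

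On simulated data with 100 of 10735 genes changed by 1 log2 unit and 100 by 2, 68 and 88 were recovered, with 10 false calls. The changed genes were drawn from the whole table, and each gene varied on its own. The median standard error was 0.34 for the interferon-stimulated rows and 0.18 for all genes tested. The recovered counts therefore do not say how many changed interferon-stimulated rows would be found. Full values are given for rows with p under 0.05, the 5 highest and 5 lowest by level, the 8 largest differences, the 8 with the largest excess of a highest library other than WT replicate 2, and the 5 with the largest excess of any. The genes and lists were chosen with earlier results of these data known. Nothing in the labels says that the pigs are unrelated, and p-values measure only the spread between these libraries. The study's protocol takes the fibroblasts for nuclear transfer from a male Yorkshire fetus, while its methods speak of embryos. The transgenic pigs may therefore be clones of a single donor. If the WT pigs do not share that donor, the transgene cannot be told apart from donor, cloning or sex. Alternatives were the pseudocount, the filter, median-of-ratios scaling, a variance trend, no moderation, the replicate block and libraries left out. No sequences are shown because none were used here.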

Additional observations from a re-analysis of the deposited data

How the results depend on the processing

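Of the alternatives, leaving out both replicate 2 libraries was chosen after the data were seen, and the cause of any change was not tested unless stated. No interferon-stimulated gene had an adjusted p under 0.05 in any fit (0 to 0 over the fits without one replicate). At an unadjusted p under 0.05, the 1 lower row became 2 with an FPKM of at least 1 in all 6 libraries (1.21% of all genes in that fit), 0 without moderation (1.13%), 0 without both libraries numbered 1 (1.37%) and 0 without both replicate 2 libraries (0.671%). Leaving out single replicates gave 0 to 10, with 10 without WT replicate 3 and 0 without WT replicate 1, WT replicate 2 or Leptin-overexpressing replicate 1. With the replicate block 4 rows were lower, as were 1.56% of all genes. Same-numbered libraries come from different pigs, and the correlation of their deviations was -0.28, 0.13 and -0.01. Whether same-numbered libraries share more than the number was not tested. Of the 6 libraries, only WT replicate 2 correlated best with its own number.

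Rows with a log2 difference above 0 numbered 18 without both libraries numbered 1 (17 below) and 10 without both replicate 2 libraries, and ranged from 4 to 24, and those below from 11 to 31, with one replicate left out. The median over the rows changed sign without both libraries numbered 1 (0.0053) and ranged from -0.52 to 0.11 with one replicate left out. For the other pathway genes, the count above 0 with an unadjusted p under 0.05 was 1 with a variance trend (1.99% of all genes), 1 without moderation (2.09%) and 3 without both replicate 2 libraries (1.38%). It ranged from 0 to 4, and that below 0 from 0 to 5, with one replicate left out.

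Without both libraries numbered 1, 12 of the 35 log2 differences changed sign, of which 7 are of genes described in full, IFIT1 (0.30), IFIT2 (0.21), IFIT3 (0.27), the TAP1 row ENSSSCG00000020893 (0.068), SAMD9 (0.034), IRF7 (0.23) and USP18 (0.079). Without both replicate 2 libraries 4 did, that TAP1 row (0.18) and TRIM25 (0.12) among them. With one replicate left out, 21 changed sign in at least 1 fit, and the ranges of the 11 described in full were -0.51 to 0.28 for IFIT1, -0.52 to 0.26 for IFIT2, -0.56 to 0.26 for IFIT3, -0.21 to 0.14 for that TAP1 row, -0.36 to 0.074 for SAMD9, -0.59 to 0.20 for IRF7, -0.21 to 0.40 for GBP1, -1.40 to 0.20 for MX2, -0.52 to 0.069 for CMPK2, -0.46 to 0.12 for USP18 and -0.29 to 0.037 for TRIM25. The level of the rows in each library and the 26 rows highest in WT replicate 2 moved by less than the spread with the other pseudocount, both other filters and median-of-ratios scaling, which gave 25 rows and took the level in WT replicate 1 from 0.09 to 0.23.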
